A study of Homo sapiens with 6 samples.

Results

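Interleukin-6 family signalling was described in 3 prostate cancer cell lines through 9 genes: the secreted ligands IL6, IL11 and LIF, the receptor chains IL6R, IL6ST, LIFR and OSMR, the transcription factor STAT3 and the inhibitor SOCS3. The members were every probe set on the array that the platform annotation assigns to one of these symbols and to no other. This gave 30 probe sets for the 9 genes, of 19775 genes with such a probe set on the array. The rule takes genes by name and uses no measured value, but the members were chosen with earlier results of these data known.

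The IL-6 family of cytokines signals through receptor complexes that share the chain gp130, encoded by IL6ST. IL-6 and IL-11 bind their own receptor chains and then engage gp130, whereas LIF and oncostatin M bring gp130 together with the LIF receptor or the oncostatin M receptor. The bound receptors activate JAK kinases, which phosphorylate STAT3, and SOCS3 is a target of STAT3 in many cells that binds gp130 and limits the response. In prostate cancer, IL-6 is known as a growth and survival factor that tumour cells can secrete for themselves.

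RNA of TEM4-18, TEM2-5 and PC-3 cells was measured on short-oligonucleotide expression arrays, with 2 arrays per line and 6 in all. PC-3 is an established line from a bone metastasis of prostate cancer. Per the labels, PC-3 cells were plated on a confluent monolayer of a human endothelial line from lung microvessels, TEM4-18 was established from cells that migrated through it, and TEM2-5 came from a repeat of that experiment. All 3 lines were grown in DMEM/F12 medium with 10% FBS, and the labels name no agent, transgene or engineered deletion in any of them. Each isolated line is 1 isolate of the single PC-3 line, so a difference between lines cannot be told apart from a difference between isolates. Nothing in the labels ties the replicate arrays to different cultures, so a p-value here reflects array-to-array spread that may be technical.

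Median signals were 267 to 317 array units, and arrays of the same line correlated at 0.976 to 0.980 over the tested probe sets. The epithelial markers KRT8, KRT18, KRT19 and EPCAM were lower in both isolated lines than in PC-3, in 4 of 4 tested genes, with a summed signal of 62136 to 68628 in TEM4-18, 72988 to 80069 in TEM2-5 and 159581 to 167103 in PC-3. Of 5 matched markers of prostate luminal cells, KLK2 and FOLH1 had means under the limit for low signals. KLK3 (770 to 1301 over the 6 arrays) passed in neither isolated line, while TMPRSS2 and HOXB13 were higher in both. The summed signal of the 5 was 14106 to 15156 in TEM4-18, 12057 to 12901 in TEM2-5 and 7389 to 10081 in PC-3. Of 12 endothelial markers, 5 were tested, and KDR, ESAM and ROBO4 were higher in TEM4-18 and KDR and ROBO4 in TEM2-5. The summed endothelial signal was 4153 to 5381 in TEM4-18, 4432 to 4628 in TEM2-5 and 2961 to 3184 in PC-3. CDH5 (23.9 to 201 over the 6 arrays), VWF (40.2 to 301), TIE1 (7.17 to 102), TEK, CLDN5, ERG and EMCN had means under the limit for low signals. The endothelial markers PECAM1 (505 to 1073) and EGFL7 (272 to 497) were tested and passed in neither isolated line. No marker was listed at 0. The summed signal of 9 fibroblast markers was 20423 to 23639 in TEM4-18, 22406 to 25770 in TEM2-5 and 9364 to 11041 in PC-3, most of it from COL1A1, and of 6 tested 1 was higher and 2 lower in TEM4-18 and 2 higher and 0 lower in TEM2-5. The 7 blood cell markers on the array were leukocyte genes and HBB, a red cell gene. Of these, 3 were tested and 0 passed by limma in either isolated line (1 at an unadjusted p under 0.05, HBB in TEM4-18). Their summed signal was 1192 to 1277 in TEM4-18, 930 to 1342 in TEM2-5 and 1318 to 1604 in PC-3. HBB alone read 263 to 684 over the 6 arrays. The part of any such cells in the results was not tested.

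The members with the widest range between lines were IL6, LIFR and OSMR, and promoters of these genes are shown for that reason. The sequences are RefSeq's for build GRCh38.p14, from 250 bases before to 50 bases after a transcript start, with the start counted as position 0. The table held 11 promoters for 8 of the 9 members, and LIF had no entry. Capitals mark matches to the motifs searched on both strands, which were TTCNNNGAA for STAT factors, GGANTTTCC for NF-kappaB and TGANTCA for AP-1.
IL6, chr7:22726950-22727249, plus strand: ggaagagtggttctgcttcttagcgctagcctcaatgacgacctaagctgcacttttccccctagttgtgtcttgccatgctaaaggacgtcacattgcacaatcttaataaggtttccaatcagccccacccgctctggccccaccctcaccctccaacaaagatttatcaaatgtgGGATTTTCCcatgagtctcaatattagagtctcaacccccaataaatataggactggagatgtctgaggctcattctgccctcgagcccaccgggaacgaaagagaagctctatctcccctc
LIFR promoter 1, chr5:38595356-38595655, minus strand: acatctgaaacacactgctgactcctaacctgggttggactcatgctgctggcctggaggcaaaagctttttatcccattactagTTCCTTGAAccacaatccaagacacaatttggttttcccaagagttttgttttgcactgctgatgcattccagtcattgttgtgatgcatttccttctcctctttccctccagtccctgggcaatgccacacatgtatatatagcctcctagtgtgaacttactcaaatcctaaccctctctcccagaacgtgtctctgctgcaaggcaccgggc
LIFR promoter 2, chr5:38557418-38557717, minus strand: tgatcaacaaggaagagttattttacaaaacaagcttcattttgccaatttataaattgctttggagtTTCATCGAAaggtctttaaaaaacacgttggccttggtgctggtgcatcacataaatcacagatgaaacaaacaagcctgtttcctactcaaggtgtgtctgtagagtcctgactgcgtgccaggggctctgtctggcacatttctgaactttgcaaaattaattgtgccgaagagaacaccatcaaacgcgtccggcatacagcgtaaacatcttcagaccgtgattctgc
OSMR, chr5:38845762-38846061, plus strand: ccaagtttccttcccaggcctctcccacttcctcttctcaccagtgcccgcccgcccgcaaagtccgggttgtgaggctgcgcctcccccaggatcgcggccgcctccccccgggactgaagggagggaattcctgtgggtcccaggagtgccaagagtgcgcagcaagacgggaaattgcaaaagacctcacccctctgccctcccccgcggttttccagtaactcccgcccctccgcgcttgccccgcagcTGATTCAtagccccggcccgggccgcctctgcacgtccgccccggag
The IL6 promoter held an NF-kappaB match at -72 to -64. Each of the LIFR promoters shown held a STAT match, at -165 to -157 in promoter 1 and at -182 to -174 in promoter 2. The third LIFR promoter, chr5:38556597-38556896, held no match and is not shown, so the LIFR sequences printed are those with a match. The OSMR promoter held an AP-1 match at 3 to 9. AP-1 matches also lay in the IL11 promoter at -96 to -90 and in the IL6R promoter at 37 to 43. The promoters of IL6ST, STAT3 and SOCS3 held none of these letters, and no 2 matches overlapped. Over 35116 RefSeq promoters of 300 bases, 7.66% held the STAT motif, 1.64% the NF-kappaB motif and 7.71% the AP-1 motif. A match describes letters in the window and is not a measured binding site.

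Signals were taken as log2(signal + 51.8), and probe sets with a mean signal above 178 over the 6 arrays were tested with limma, with p-values adjusted by Benjamini-Hochberg across the 32518 tested ones in each comparison and a threshold of 0.05. Of the 30 member probe sets, 24 passed this filter. The other 6 were 2 for IL6ST, 3 for STAT3 and 1 for SOCS3. A log2 fold change on this scale understates the change of dim probe sets. Probe sets differ in how brightly they report a transcript, so each was compared only with itself across the lines.

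In TEM4-18 against PC-3, 15 of the 24 tested member probe sets passed the threshold, with 11 higher and 4 lower. The share was 62.5%, where 25.8% of all tested probe sets passed, 12.9% higher and 12.9% lower. The median log2 fold change of the member probe sets was 0.39, beside -0.0014 over all tested probe sets. In TEM2-5 against PC-3, 11 of 24 passed, with 10 higher and 1 lower. That share was 45.8%, where 16.4% of all tested probe sets passed, 8.74% higher and 7.65% lower. The median was 0.56, beside 0.0078 over all probe sets. Several of these probe sets report the same gene and are not independent of each other, and both comparisons share the PC-3 arrays. The members were chosen with earlier results of these data known, so their shares beside all probe sets are a description. Leaving out TEM4-18 replicate 2 left 6 member probe sets called in TEM4-18, and leaving out PC-3 replicate 2 left 8. In TEM2-5, 5 passed when either TEM2-5 array was left out and 6 when PC-3 replicate 2 was. Without the mean-variance trend in limma's estimate of the spread, 9 passed in TEM4-18 and 4 in TEM2-5.

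**Figure D1:**
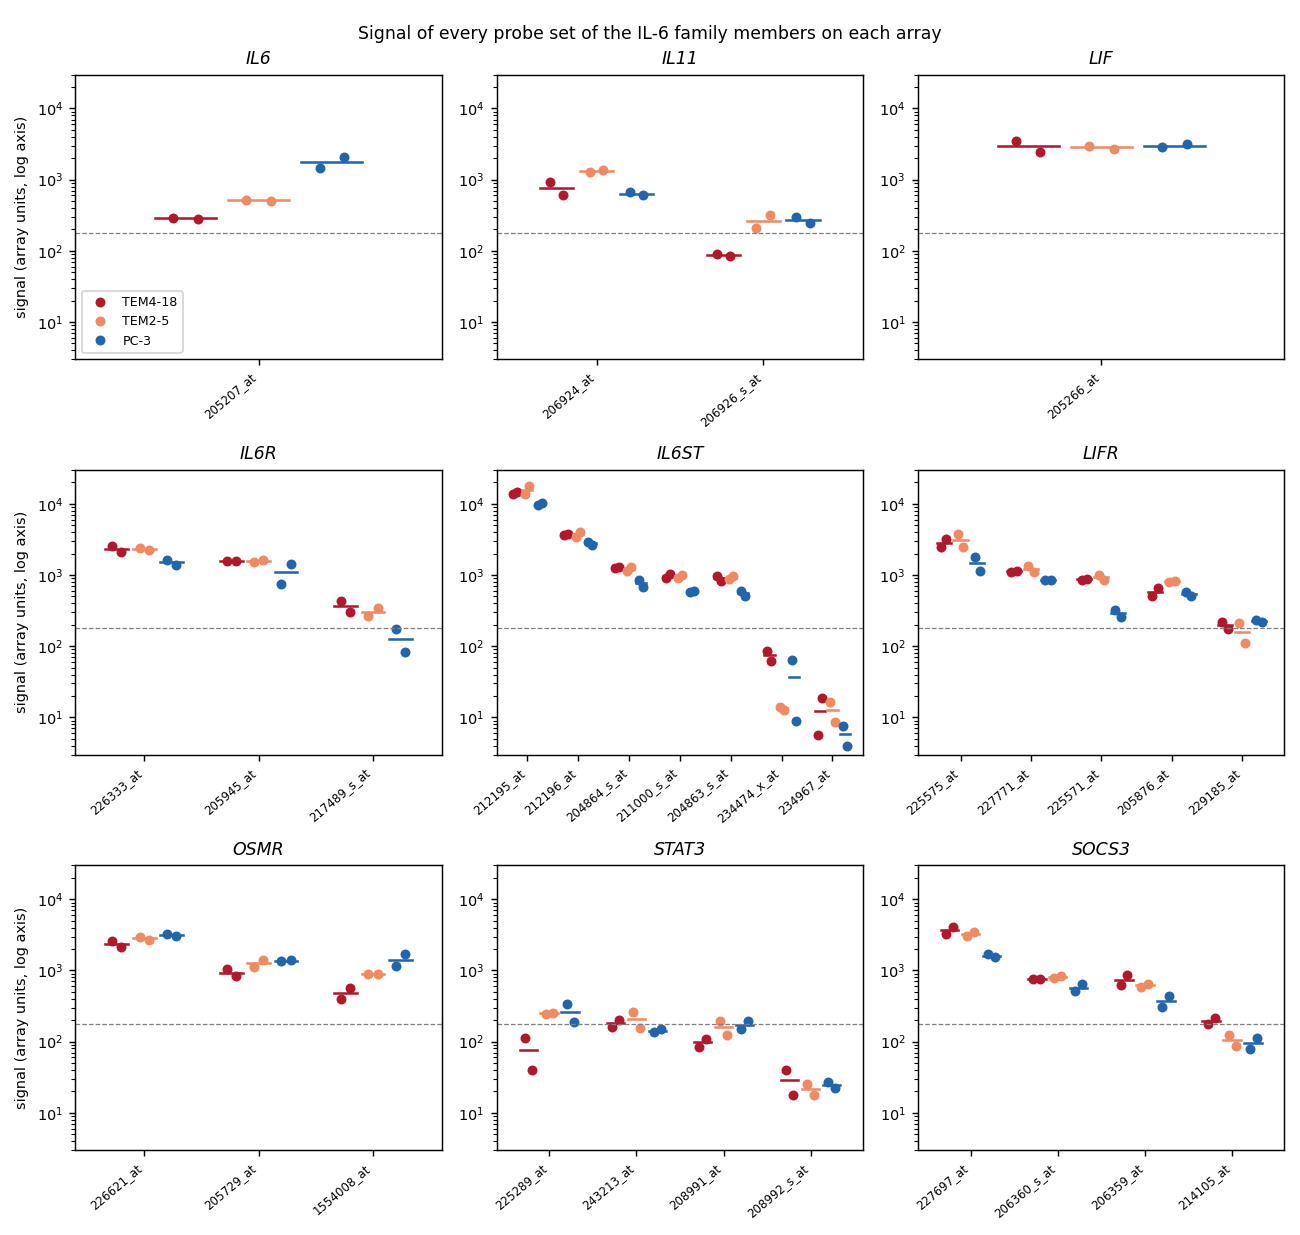
Signal of each of the 30 member probe sets on each of the 6 arrays, in array units on a log axis, with one panel per gene. Points are arrays and short bars are means of 2 arrays for TEM4-18, TEM2-5 and PC-3, and the dashed line is the mean signal of 178 needed for a test. IL6 lies lowest in TEM4-18 and highest in PC-3, and the 4 STAT3 probe sets lie at 17.8 to 338 on all arrays.

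Of the 24 tested probe sets, that of the ligand IL6 had the widest range between line means. Its probe set 205207_at had signals of 289 and 282 in TEM4-18, 526 and 498 in TEM2-5, and 1437 and 2056 in PC-3. The lines did not overlap: TEM4-18 was lowest, TEM2-5 lay between, and PC-3 was highest. IL6 fell in TEM4-18 with a log2 change of -2.39 ± 0.22 (SE, adjusted p = 2.21e-05), which is 5.25-fold on this scale. It fell in TEM2-5 with a log2 change of -1.65 ± 0.22 (SE, adjusted p = 0.000597), or 3.14-fold. Both calls held in all 14 alternative settings. The log2 difference of TEM4-18 from TEM2-5 was -0.74 ± 0.22 (SE, adjusted p = 0.15) and did not pass the threshold. In RNA of a whole culture, fewer cells that express a gene and less RNA per cell cannot be told apart.

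IL11, a cytokine known for roles in bone remodelling and fibrosis, gave different patterns through its 2 probe sets. Probe set 206924_at had signals of 925 and 608 in TEM4-18, 1263 and 1363 in TEM2-5, and 663 and 599.8 in PC-3. Both TEM2-5 arrays lay above all others, and the TEM4-18 and PC-3 arrays overlapped. It rose in TEM2-5 with a log2 change of 1.00 ± 0.21 (SE, adjusted p = 0.00837), a call lost when either the trend or TEM2-5 replicate 2 was left out. In TEM4-18 the log2 fold change was 0.23 ± 0.21 (SE, adjusted p = 0.463), and the difference of TEM4-18 from TEM2-5 was -0.76 ± 0.21 (SE, adjusted p = 0.116). Probe set 206926_s_at had signals of 90.7 and 83.7 in TEM4-18, 208 and 315 in TEM2-5, and 295 and 244 in PC-3. Here TEM4-18 was lowest, and the TEM2-5 and PC-3 arrays overlapped. Its log2 fold change was -1.21 ± 0.41 (SE, adjusted p = 0.0535) in TEM4-18 and -0.06 ± 0.41 (SE, adjusted p = 0.951) in TEM2-5, and neither passed the threshold. The name ending _s_at marks probes that can match several transcripts. Called probe sets of other genes also carry it, among them some of IL6ST, IL6R, MUC1, IER3 and SHC1.

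LIF, the ligand of the LIF receptor, passed the threshold in neither line. Probe set 205266_at had signals of 3447 and 2449 in TEM4-18, 2978 and 2714 in TEM2-5, and 2889 and 3124 in PC-3, and all 3 lines overlapped. The log2 fold change was -0.05 ± 0.15 (SE, adjusted p = 0.864) in TEM4-18 and -0.08 ± 0.15 (SE, adjusted p = 0.791) in TEM2-5.

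RNA of IL6ST, which encodes the shared signal-transducing chain gp130, was higher in both isolated lines. All 5 tested IL6ST probe sets rose in TEM4-18, by 0.40 to 0.70 on the log2 scale, and all 5 rose in TEM2-5, by 0.39 to 0.69. The probe set 212195_at had signals of 13777 and 14732 in TEM4-18, 13981 and 17634 in TEM2-5, and 9706 and 10226 in PC-3. Each array of either isolated line lay above both PC-3 arrays, and the isolated lines overlapped. The log2 fold change was 0.51 ± 0.11 (SE, adjusted p = 0.00468) in TEM4-18 and 0.65 ± 0.11 (SE, adjusted p = 0.00209) in TEM2-5. This probe set kept its call in TEM4-18 and TEM2-5 without each array in turn but lost it in both without the mean-variance trend, whereas the other 4 lost it in each comparison without at least 1 of the arrays compared. The 2 IL6ST probe sets that were not tested, 234474_x_at and 234967_at, had signals of at most 86.0 and 18.5 on any array.

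The IL-6 receptor chain IL6R, which confers binding of IL-6, was higher by 2 of 3 probe sets in TEM4-18 and by 1 of 3 in TEM2-5. Probe set 226333_at had signals of 2560.3 and 2122 in TEM4-18, 2369.6 and 2269 in TEM2-5, and 1612 and 1390.0 in PC-3. Both isolated lines lay above PC-3 and overlapped each other. The log2 fold change was 0.62 ± 0.14 (SE, adjusted p = 0.00772) in TEM4-18 and 0.61 ± 0.14 (SE, adjusted p = 0.0134) in TEM2-5. The TEM4-18 call was lost without PC-3 replicate 2 or TEM4-18 replicate 1, and the TEM2-5 call without PC-3 replicate 2, either TEM2-5 replicate or the trend. Probe set 217489_s_at rose in TEM4-18 by 1.25 ± 0.39 (SE, adjusted p = 0.0378) on the log2 scale, a call lost in 8 of the 13 alternatives that tested it, and had 1.03 ± 0.39 (SE, adjusted p = 0.103) in TEM2-5. The third, 205945_at, passed in neither line, with PC-3 replicates at 756 and 1450.0.

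LIFR, the receptor chain for LIF that also pairs with gp130 for other ligands, rose by 2 of its 5 probe sets in each isolated line. Probe set 225571_at had signals of 849 and 886 in TEM4-18, 1006 and 858 in TEM2-5, and 328 and 256 in PC-3. Both isolated lines lay above PC-3, and they overlapped each other. Its log2 fold change was 1.43 ± 0.21 (SE, adjusted p = 0.000528) in TEM4-18, or 2.69-fold, and 1.52 ± 0.21 (SE, adjusted p = 0.000715) in TEM2-5, or 2.87-fold. Both calls held in all 14 alternatives. Probe set 225575_at had signals of 2509 and 3182 in TEM4-18, 3783 and 2468 in TEM2-5, and 1785 and 1138 in PC-3, also without overlap between either isolated line and PC-3. It rose in TEM4-18 by 0.96 ± 0.23 (SE, adjusted p = 0.012) on the log2 scale and in TEM2-5 by 1.07 ± 0.23 (SE, adjusted p = 0.0109). These calls were lost without the trend and without PC-3 replicate 2, and without TEM4-18 replicate 2 for TEM4-18 or TEM2-5 replicate 1 for TEM2-5. The other 3 LIFR probe sets passed in neither line, with log2 fold changes of 0.38 and 0.48 for 227771_at in TEM4-18 and TEM2-5, 0.09 and 0.55 for 205876_at, and -0.17 and -0.43 for 229185_at.

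OSMR, which pairs with gp130 to form a receptor for oncostatin M, fell in TEM4-18 by all 3 of its probe sets. Probe set 1554008_at had signals of 393 and 568 in TEM4-18, 880.5 and 887 in TEM2-5, and 1144 and 1685 in PC-3. The lines did not overlap, with TEM4-18 lowest and PC-3 highest. It fell in TEM4-18 with a log2 change of -1.46 ± 0.23 (SE, adjusted p = 0.000897), or 2.74-fold, a call that held in all 14 alternatives. The other OSMR probe sets fell by 0.42 ± 0.12 (SE, adjusted p = 0.0292) for 226621_at and by 0.54 ± 0.17 (SE, adjusted p = 0.0402) for 205729_at on the log2 scale, and both calls were lost without TEM4-18 replicate 2, PC-3 replicate 1, PC-3 replicate 2 or the trend, and that of 205729_at also without the filter on low signals. In TEM2-5, 0 of 3 OSMR probe sets passed, with log2 fold changes of -0.62 for 1554008_at (adjusted p = 0.0924), -0.15 for 226621_at and -0.12 for 205729_at. The unadjusted p was under 0.05 for 1554008_at alone of the 3. The test of TEM4-18 against TEM2-5 gave a log2 difference of -0.83 ± 0.23 (SE, adjusted p = 0.118) for 1554008_at, so a difference between the isolated lines was not shown. In the RefSeq annotation LIFR and OSMR are consecutive protein-coding genes on chromosome 5, and in TEM4-18 the called probe sets of LIFR were higher and those of OSMR lower.

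**Figure D2:**
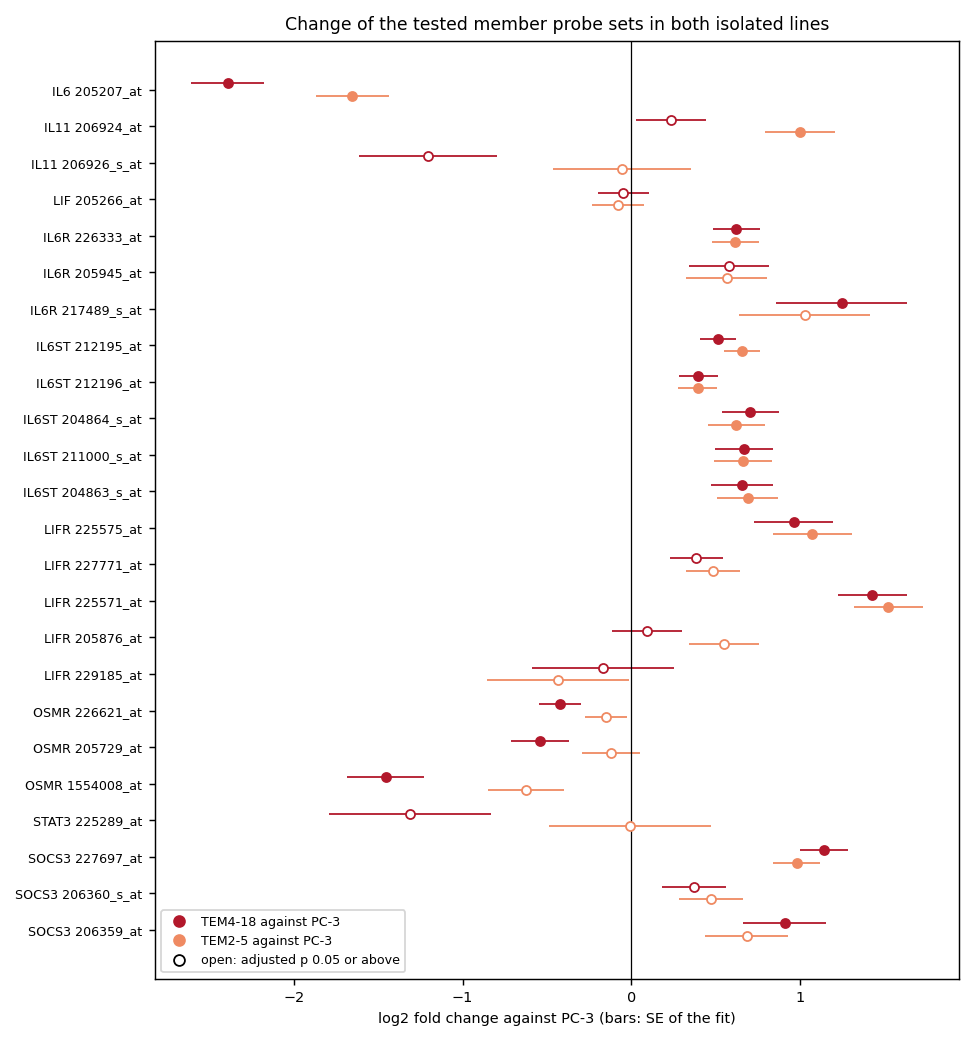
Log2 fold change of the 24 tested member probe sets in TEM4-18 and TEM2-5 against PC-3, one row per probe set, with the standard error of the fit as bars. Filled points have an adjusted p under 0.05. IL6 is lower in both lines, IL6ST is higher by all 5 probe sets in both, and OSMR is lower and filled by 3 of 3 probe sets in TEM4-18 and 0 of 3 in TEM2-5.

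STAT3, the main transcription factor downstream of gp130, gave dim signals in all 3 lines. Its 4 probe sets read 17.8 to 338 over the 6 arrays, and 1 of them, 225289_at, passed the filter. That probe set had signals of 113 and 39.5 in TEM4-18, 247 and 255 in TEM2-5, and 338 and 186 in PC-3. Both TEM4-18 arrays lay below the others, and the TEM2-5 and PC-3 arrays overlapped. The log2 fold change was -1.31 ± 0.48 (SE, adjusted p = 0.07) in TEM4-18 and -0.01 ± 0.48 (SE, adjusted p = 0.995) in TEM2-5, and neither passed the threshold. The untested probe sets 243213_at, 208991_at and 208992_s_at had 6-array means at the 40.4th, 35.8th and 5.33th percentile of all probe sets. As background, PC-3 cells are known to lack the STAT3 gene. DNA was not measured here, and the part of a gene loss in these signals was not tested.

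The protein-coding genes beside STAT3 were read in the same way after the STAT3 values had been seen. Going outward from STAT3 on one side, STAT5A read 193 to 381, STAT5B 23.4 to 316 over 5 probe sets and GHDC 20.5 to 208. Next, HCRT read 9.83 to 266, KCNH4 14.2 to 86.0, RAB5C 19.0 to 269, HSPB9 16.9 to 69.0 and KAT2A 259 to 462. Of these, STAT5A, KAT2A and 1 of the 5 STAT5B probe sets passed the filter. STAT5A and STAT5B are transcription factors related to STAT3 that several cytokine receptors use. On the other side, CAVIN1 read 35.6 to 324, ATP6V0A1 13.4 to 597 and NAGLU 8.33 to 629.5 over all their probe sets. The brightest probe set of each passed the filter, at 299 to 597 for ATP6V0A1 and 302 to 629.5 for NAGLU. Beyond these, HSD17B1 read 32.7 to 2008 over 2 probe sets, of which the brighter read 1432 to 2008. COASY read 3765 to 5062 and RETREG3 2719.7 to 3000.0. MLX read 28.7 to 3836 over 6 probe sets, with 5 above the filter limit. On the first side, past KAT2A, DHX58 (13.8 to 25.9) and ZNF385C (9.63 to 117), NKIRAS2 read 909 to 1962. Dim genes also lay farther out, such as CCR10, past COASY, at 9.97 to 141. Signals of different genes depend on their probes, so these ranges say only which genes lay near the filter limit of 178 and which far above it in all 3 lines.

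**Figure D3:**
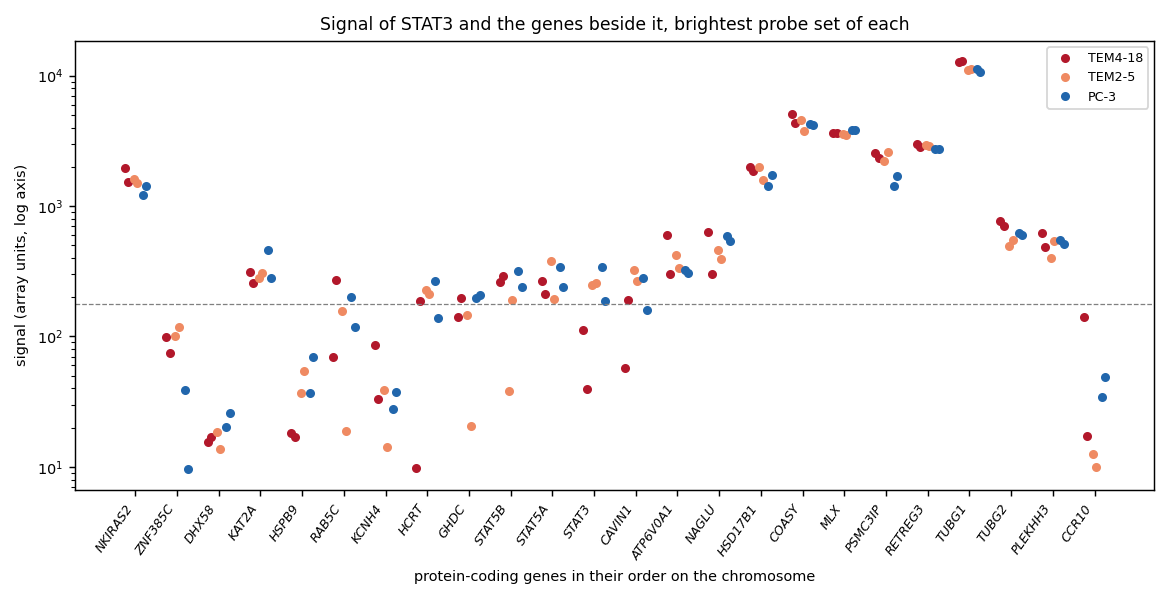
Signal of STAT3 and its protein-coding neighbours on the chromosome, in array units on a log axis, by the probe set of each gene with the highest mean. Points are the 6 arrays by line and the dashed line is the filter limit of 178. Signals of STAT3, STAT5A and STAT5B lie at or below 381 in TEM4-18, TEM2-5 and PC-3, while COASY reads 3765 to 5062.

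SOCS3, the feedback inhibitor that binds gp130, was higher in both isolated lines. Probe set 227697_at had signals of 3216 and 4108 in TEM4-18, 3029 and 3469 in TEM2-5, and 1679 and 1563 in PC-3. Both isolated lines lay above PC-3 and overlapped each other. It rose in TEM4-18 with a log2 change of 1.14 ± 0.14 (SE, adjusted p = 0.000187), or 2.20-fold, and in TEM2-5 with 0.98 ± 0.14 (SE, adjusted p = 0.00103), or 1.97-fold. Both calls held in all 14 alternatives. Probe set 206359_at had signals of 617 and 867 in TEM4-18, 584 and 654 in TEM2-5, and 306 and 436 in PC-3, and each isolated line lay above PC-3. It rose in TEM4-18 by 0.91 ± 0.25 (SE, adjusted p = 0.0207) on the log2 scale, a call lost without PC-3 replicate 1, TEM4-18 replicate 2, the trend or the filter, and had 0.68 ± 0.25 (SE, adjusted p = 0.0908) in TEM2-5. Probe set 206360_s_at passed in neither line, with 0.37 ± 0.19 (SE, adjusted p = 0.189) in TEM4-18 and 0.47 ± 0.19 (SE, adjusted p = 0.124) in TEM2-5. The untested probe set 214105_at read 179 to 217 in TEM4-18, 88.1 to 122 in TEM2-5 and 77.8 to 112 in PC-3.

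The isolated lines were then compared with each other, which is the test of whether a member changed differently in them. By limma, 0 of 24 member probe sets passed, where 1.8% of all tested probe sets did, 0.36% higher and 1.44% lower in TEM4-18. The members' log2 differences of TEM4-18 from TEM2-5 ran from -1.30 to 0.27, with a median of -0.096 beside -0.0067 over all probe sets, and the lowest adjusted p was 0.116. At an unadjusted p under 0.05 there were 7 of 24 member probe sets, beside 4080 of 32518 over the array. With the replicate number as a block, 1 member probe set passed, OSMR 1554008_at.

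The rest of the pathway was read from a list of 69 further genes, of which 63 were on the array and 50 were tested, each by its brightest probe set, from which a gene's other probe sets can differ. In TEM4-18, 11 of 50 were higher and 8 lower than in PC-3, where 13.3% of all tested genes were higher and 16.1% lower. In TEM2-5, 9 of 50 were higher and 6 lower, where 9.04% of all tested genes were higher and 10.1% lower. The list's median log2 fold change was -0.091 in TEM4-18 and 0.011 in TEM2-5, beside -0.037 and -0.024 over all tested genes. The lower genes, at 8 and 6 of 50, were near the background share in both lines. The list, too, was chosen with earlier results of these data known. The genes named below passed the threshold with a log2 fold change of at least 1 in either line, by rule, and the remaining ones are given to show the counts.

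Of the other ligands, 2 of 5 on the array were tested, CNTF and CTF1, and by limma 0 passed in either line, also at an unadjusted p under 0.05. OSM, the ligand of OSMR, was not tested and read 22.7 to 64.8 over the 6 arrays. Of 4 other receptors, IL31RA, which pairs with OSMR to bind IL-31, rose. Its signals were 1079 and 942 in TEM4-18, 836 and 1073 in TEM2-5, and 421 and 421 in PC-3, without overlap between either isolated line and PC-3. The log2 fold change was 1.17 ± 0.19 (SE, adjusted p = 0.00129) in TEM4-18 and 1.08 ± 0.19 (SE, adjusted p = 0.00372) in TEM2-5. Of 6 kinases and STATs besides STAT3, TYK2, a JAK family kinase, rose in both lines, by 0.74 ± 0.10 (SE, adjusted p = 0.000283) in TEM4-18 and 0.57 ± 0.10 (SE, adjusted p = 0.00286) in TEM2-5 on the log2 scale. JAK1, a kinase that gp130 relies on, had log2 fold changes of -0.08 ± 0.10 (SE, adjusted p = 0.603) in TEM4-18 and 0.04 ± 0.10 (SE, adjusted p = 0.823) in TEM2-5.

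Of 15 inhibitors besides SOCS3, 4 rose and 1 fell in TEM4-18, and 3 rose and 0 fell in TEM2-5. The shares over all tested genes were 13.3% higher and 16.1% lower in TEM4-18, and 9.04% higher and 10.1% lower in TEM2-5. SOCS2, an inhibitor best known for limiting growth hormone signalling, had signals of 12782 and 14161 in TEM4-18, 10889 and 12029.9 in TEM2-5, and 4517 and 4735 in PC-3. Both isolated lines lay above PC-3, with log2 fold changes of 1.53 ± 0.09 (SE, adjusted p = 1.19e-06) in TEM4-18 and 1.30 ± 0.09 (SE, adjusted p = 1.4e-05) in TEM2-5. SOCS4, another member of that inhibitor family, had signals of 16056 and 16598 in TEM4-18, 11956 and 11406 in TEM2-5, and 6652 and 7399.8 in PC-3. The lines did not overlap, and the log2 fold change was 1.21 ± 0.08 (SE, adjusted p = 3.25e-06) in TEM4-18 and 0.73 ± 0.08 (SE, adjusted p = 0.00025) in TEM2-5. Both tested SOCS4 probe sets were called higher in each line. By their brightest probe sets, SOCS5 (log2 fold change 0.47) and the phosphatase PTPN2 (0.29) were also higher in TEM4-18, and the STAT inhibitor PIAS1 (-0.56) was lower. That call was made by 3 of 3 tested probe sets for SOCS5, but by 1 of 6 for PTPN2 and 1 of 3 for PIAS1. In TEM2-5, SOCS5 was called by 1 of 3 (0.44). Of 6 adaptors and shedding enzymes, 2 rose in both lines by their brightest probe sets, the adaptor SHC1 (0.93 in TEM4-18 and 0.48 in TEM2-5) and the Ras activator SOS1 (0.71 and 0.44 in the same lines). Both tested SHC1 probe sets were called in each line, and 1 of 4 tested SOS1 probe sets was.

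Of 17 tested genes that are commonly listed as STAT3 targets, 3 rose and 7 fell in TEM4-18, and 2 rose and 6 fell in TEM2-5. Over all tested genes, 13.3% were higher and 16.1% lower in TEM4-18, and 9.04% higher and 10.1% lower in TEM2-5. The genes that rose by their brightest probe sets were MCL1, BCL2L1 and TIMP1 in TEM4-18, and MCL1 and TIMP1 in TEM2-5. For MCL1, 1 of 6 tested probe sets made that call in each line. The activity of STAT3, whose own probe sets read 17.8 to 338, was not measured. As given above as background, PC-3 cells are known to lack the STAT3 gene, and the part of STAT3 in these changes was not tested. The median log2 fold change of these 17 was -0.26 in TEM4-18 and -0.055 in TEM2-5, beside -0.037 and -0.024 over all tested genes. The genes that fell most were MUC1, a transmembrane mucin of epithelial cells, IER3, an early response gene that modulates cell survival, and JUNB, an AP-1 subunit. MUC1 had signals of 249 and 287 in TEM4-18, 794 and 795 in TEM2-5, and 1501 and 1196 in PC-3. The lines did not overlap, and MUC1 was lowest in TEM4-18. Its log2 fold change was -2.13 ± 0.20 (SE, adjusted p = 2.71e-05) in TEM4-18 and -0.72 ± 0.20 (SE, adjusted p = 0.0321) in TEM2-5. IER3 had signals of 17267 and 13759 in TEM4-18, 23417 and 20868 in TEM2-5, and 45177 and 45501 in PC-3, again in the order TEM4-18, TEM2-5 and PC-3 without overlap. IER3 fell with -1.55 ± 0.10 (SE, adjusted p = 2.35e-06) in TEM4-18 and -1.03 ± 0.10 (SE, adjusted p = 9.64e-05) in TEM2-5. JUNB had signals of 1379 and 1029.7 in TEM4-18, 1395 and 1067 in TEM2-5, and 3011 and 2961 in PC-3, and the isolated lines overlapped each other below PC-3. Its log2 fold change was -1.29 ± 0.17 (SE, adjusted p = 0.000352) in TEM4-18 and -1.26 ± 0.17 (SE, adjusted p = 0.000846) in TEM2-5. MUC1 is an epithelial gene, and its signal was read beside that of EPCAM, an epithelial adhesion protein, at 2035 and 1726 in TEM4-18, 10854 and 10398 in TEM2-5, and 44612 and 42292 in PC-3. Of 3 tested MUC1 probe sets, 2 were called lower in TEM4-18 and 1 in TEM2-5. The part of the epithelial difference in the MUC1 result was not tested. The TEM2-5 call of MUC1 was lost without either PC-3 replicate, either TEM2-5 replicate, the trend or the filter.

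**Figure D4:**
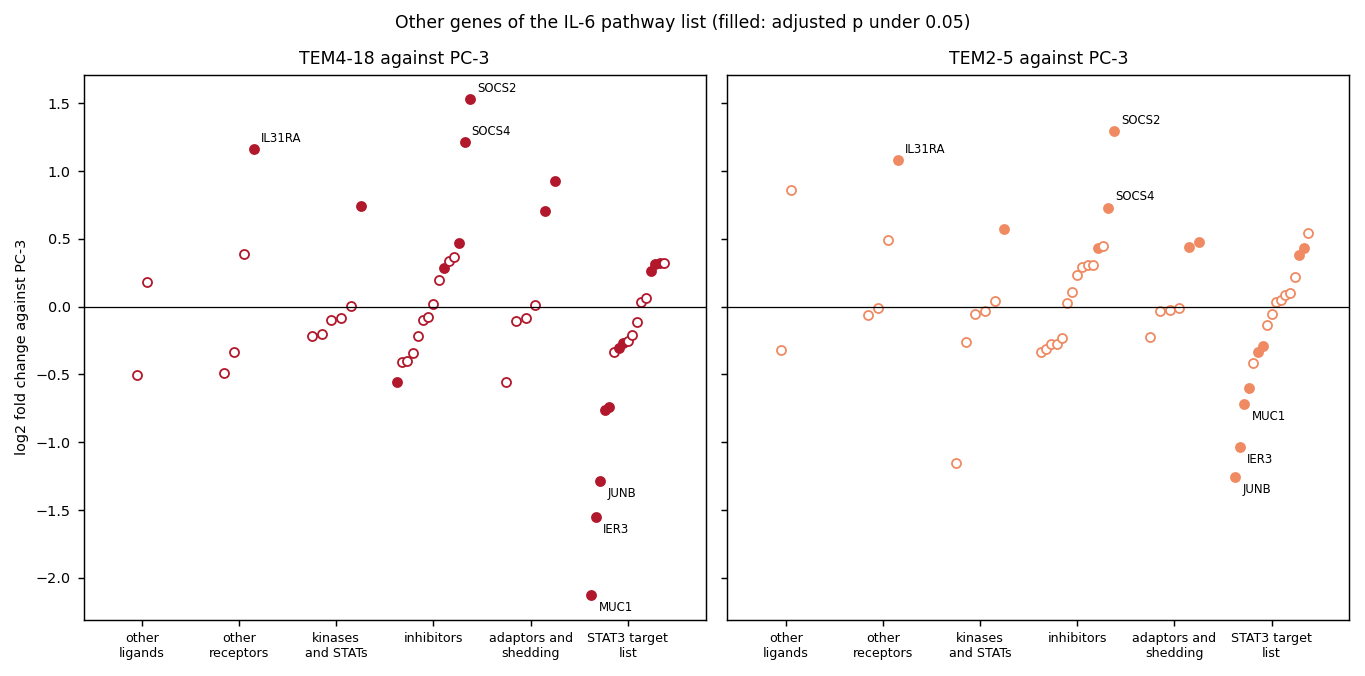
Log2 fold change of the 50 tested pathway genes besides the members in TEM4-18 (left) and TEM2-5 (right) against PC-3, grouped by role and sorted within a group, with filled points for an adjusted p under 0.05. In the group of STAT3 target genes 7 of 17 are filled and lower in TEM4-18 and 6 of 17 in TEM2-5, with MUC1, IER3 and JUNB at the bottom. Over all tested genes, 16.1% were lower in TEM4-18 and 10.1% in TEM2-5.

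Directly compared, 2 of these 50 genes were higher and 2 lower in TEM4-18 than in TEM2-5, where 0.494% of all tested genes were higher and 2.27% lower. The higher ones were SOCS4, with a log2 difference of 0.48 ± 0.08 (SE, adjusted p = 0.0161), and SHC1, with 0.45 ± 0.07 (SE, adjusted p = 0.0124). The lower ones were MUC1, with -1.41 ± 0.20 (SE, adjusted p = 0.00469), and IER3, with -0.52 ± 0.10 (SE, adjusted p = 0.0312). The call was made by both tested SHC1 probe sets, by 1 of 2 for SOCS4 and by 1 of 3 for MUC1, and IER3 had 1 probe set. SHC1 was named after its value had been seen. All 4 calls were lost without the trend. The MUC1 call was also lost without TEM2-5 replicate 1, and each of the other 3 was lost without each of at least 3 of the 4 arrays compared.

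For the 3 member probe sets with the widest range between lines, the genes with the most similar profile over the 6 arrays were found among 13548 other genes. Likeness was the root mean square difference of log2 values after centring each gene on its own mean, and a smaller value is more alike. For IL6 the closest were ADM, which encodes the vasodilator peptide adrenomedullin, the adhesion receptor gene ADGRF4, IGSF3, and the kinase genes PAK6 and RPS6KA2, at 0.10 to 0.14. ADM fell with log2 fold changes of -2.22 in TEM4-18 and -1.70 in TEM2-5. For LIFR 225571_at they were LIX1L, the lipid phosphatase gene LPIN2, ARHGAP22, MGAT5, an enzyme of N-glycan branching, and the splicing regulator gene RBFOX2, at 0.097 to 0.14. For OSMR 1554008_at they were ARHGAP42, the prostaglandin F receptor gene PTGFR, TNFRSF11A, which encodes the receptor RANK, PARP12 and RUNX2, a transcription factor of bone formation, at 0.083 to 0.15. RUNX2 had signals of 1173 and 1189.9 in TEM4-18, 2066 and 2065 in TEM2-5, and 2780.0 and 3492 in PC-3. These genes were picked for their likeness over the same 6 arrays, and their values are a description.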

How the data were processed

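The deposited values are linear signal intensities per probe set. MAS5 is the tool that the submitters' processing notes name, without a version. Their 2% trimmed mean was 1500.17 to 1500.18 on the 6 arrays, so the authors' intensities were taken as already scaled. The number of arrays limits the precision. Of 54675 probe sets, 41097 had a single symbol in the platform annotation, 1801 several and 11777 none. Symbols were matched by gene ID to RefSeq (assembly GRCh38.p14), which changed 0 and left 54 unmatched. The 62 control probe sets were left out of the tests.

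The values were transformed to log2(signal + 51.8), the 20th percentile of all values, and kept where the mean exceeded 178, the 40th percentile. One limma 3.58.1 model (R 4.3.3, lmFit, then eBayes with a trend) was fitted to 6 arrays with 3 line means and 3 residual degrees of freedom. Tests were two-sided, with Benjamini-Hochberg adjusted p, and were checked on simulated data. Genes of the pathway list were read by their brightest tested single-symbol probe set. Errors are standard errors of the fit. Alternatives changed the pseudocount, filter, normalization, trend, block and arrays.

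Members and lists were chosen with earlier results of these data known. Named were all members, pathway genes past the threshold with a log2 change of at least 1, and the 5 genes most like each of the 3 widest members. TEM2-5 replicate 2 follows the array's title, since its source name gives replicate 1. Replicate differences of the lines correlated at 0.065 to 0.097, so the replicate numbers were not taken to pair the arrays. Replicate 1 had the higher median signal in each line, at 317 and 282 in PC-3, 296 and 267 in TEM4-18, and 310 and 281 in TEM2-5. Whether arrays of the same number share a batch was not tested. As a further check, 0 pairs of arrays were identical.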

Additional observations from a re-analysis of the deposited data

Results flagged for a closer look

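In 4 genes of the pathway list, the change against PC-3 differed between TEM4-18 and TEM2-5 by the direct comparison of these lines, with limma and p adjusted by Benjamini-Hochberg over the tested probe sets. MUC1 differed by -1.41 on the log2 scale (adjusted p = 0.00469), with both TEM4-18 arrays below both TEM2-5 arrays. The MUC1 call was made by 1 of 3 tested probe sets and was lost in 2 of 14 alternatives. IER3 differed by -0.52 (adjusted p = 0.0312), with both TEM4-18 arrays below both TEM2-5 arrays, and lost its call in 5 of 14. SOCS4 differed by 0.48 (adjusted p = 0.0161), with both TEM4-18 arrays above both TEM2-5 arrays. It was called by 1 of 2 tested probe sets and lost its call in 5 of 14. SHC1 differed by 0.45 (adjusted p = 0.0124), with both TEM4-18 arrays above both TEM2-5 arrays, and lost its call in 4 of 14. All 4 calls were lost without the mean-variance trend. Groups of 2 arrays are too small to test a single array as an outlier.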

How the results depend on the processing

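With a pseudocount of 1, 4 times the pseudocount, quantile normalization, the filter at the 60th percentile, a fit on the 4 arrays of the lines compared or, for the pathway list, averaged probe sets, each count of calls stayed within 1.5 times its value. Without the mean-variance trend, calls in TEM4-18 against PC-3 were 5404 over all probe sets, 9 among members and 16 on the pathway list (members included). They were 2353, 4 and 9 in TEM2-5 against PC-3, and 127 over all probe sets and 0 on the pathway list in TEM4-18 against TEM2-5. Without a filter, 7 member probe sets were called in TEM2-5 against PC-3, and 300 probe sets in TEM4-18 against TEM2-5. The replicate block, used although the numbers were not taken to pair the arrays, gave 9441, 6433 and 871 calls over all probe sets. Among members it gave 15, 13 and 1 in the 3 comparisons. Without each replicate in turn, where a lone array is assumed to vary like the other lines, calls over all probe sets were 5974 to 7761 in TEM4-18 and 2842 to 5136 in TEM2-5 against PC-3, and 220 to 553 between the isolated lines. Among members they were 6 to 14, 5 to 10 and 0 to 0, and on the pathway list 17 to 25, 15 to 21 and 1 to 4, in the same order. The sign turned for 6 log2 fold changes, none of them called. Without each replicate, IL11 206924_at ran from -0.048 to 0.52, LIF from -0.29 to 0.20 and LIFR 205876_at from -0.078 to 0.26 in TEM4-18. In TEM2-5, IL11 206926_s_at ran from -0.30 to 0.19, OSMR 205729_at from -0.27 to 0.031 and STAT3 225289_at from -0.37 to 0.35. STAT3 in TEM2-5 was also at 0.0013 with a pseudocount of 1 and at 0.0064 with quantile normalization. The cause of these shifts was not tested.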
